A study of Schizosaccharomyces pombe with 4 samples.

Results

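Of the 1638 Xrn1-sensitive unstable transcripts (XUTs) listed in the fission yeast annotation of this series, 433 (26.4%) had no antisense gene, meaning that they shared under 50 nt with every protein-coding gene annotated on the opposite strand. They are called non-antisense XUTs here, and the other 1205 are called asXUTs. The choice used coordinates and strands only, and no measured value. The longest overlap of a non-antisense XUT with an opposite gene was 49 nt and the shortest of an asXUT was 54 nt, with 2 XUTs at 40 to 49 nt and 2 at 50 to 59 nt. Of the 433, 165 lay on chromosome I, 160 on chromosome II and 98 on chromosome III. All 7 XUTs of the unplaced sequence AB325691, both XUTs of the mating-type sequence MTR and the 1 XUT of the mitochondrial sequence MT were also among them.

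The data are native elongating transcript sequencing (NET-Seq) of Schizosaccharomyces pombe cells in exponential growth. Each of 2 biological replicates gave an IP library, made from RNA that came down with the Flag-tagged Rpb3 subunit of RNA polymerase II (RNAPII), and an input library, made from total RNA of the same sample without the purification. All 4 libraries came from YAM2507, a strain that carries both the Rpb3-flag tag and the exo2-delta deletion, so nothing here compares cells with and without Exo2. The libraries are from bulk cultures, in which a signal in few cells and a low signal in every cell cannot be told apart.

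Exo2 is the fission yeast form of Xrn1, the cytoplasmic exonuclease that degrades decapped RNA from its 5′ end, and XUTs are non-coding RNAs found because they accumulate when that enzyme is missing. In NET-Seq the IP reads come from RNA held by the polymerase, so they follow transcription, whereas the input reads also follow how long the RNA lasts. An XUT that lies opposite a gene shares its DNA with that gene, whereas one without an antisense gene lies between genes, beside a promoter or terminator, or on the same strand as another annotated transcript.

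The starts of 4 XUTs that share no nt with a non-XUT feature of this annotation on their strand are printed first. They comprise the pair of such XUTs with the highest IP density, XUT1604 and XUT1539, and 2 further ones that follow strongly transcribed genes. Each line gives the 15 nt before the annotated start in lower case and the first 15 nt of the XUT in capitals, from the RefSeq genome (ASM294v2).
XUT1604: attgcaaagtgcaccACCCATCGTCAGCAA
XUT0048: catgcatgtacatgtTAAATTTAATGTTCT
XUT0093: ttactcttctttcgtGAAACGGTAGACGTT
XUT1539: atatgatattagcttGCAACTGTAGACAAG

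The window of XUT1604 is chrI:5145667-5145696 on the + strand and that of XUT1539 is chrI:4239932-4239961 on the + strand. The window of XUT0048 is chrIII:506189-506218 and that of XUT0093 is chrIII:1410944-1410973, both on the − strand. The next 3 lines show where a non-antisense XUT shares a tRNA gene on its own strand, since the XUTs with more signal in the input than in the IP were of this kind. The last 20 nt of the tRNA gene are in capitals and the 10 nt after it are in lower case.
XUT1375, SPATRNACYS.01: TTCAAATCCGGCTGGTCCCTtatgtttttt
XUT0616, SPATRNATHR.03: TTCGAGTCACTGCTGGAGCAatgctttttt
XUT1349, SPATRNASER.01: TTCAAATCCTGCTGGTGACGgtatttgtgc

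These windows are chrI:1421202-1421231 (+ strand), chrI:2844664-2844693 (− strand) and chrI:1096447-1096476 (+ strand). RNA polymerase III, which makes tRNAs and is a different enzyme from the one purified here, is known to stop at runs of T. A run of 4 T (TTTT, read on the strand of the tRNA gene) lay within 20 nt after the tRNA gene for 8 of the 9 tRNA genes shared with a non-antisense XUT (88.9%), and for 160 of 171 tRNA genes of the genome (93.6%).

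The libraries held 3338808 and 6962801 IP reads in replicates 1 and 2, against 10172688 and 9114952 input reads. In the deposited values each library's reads were scaled by a single factor, so that 1 read counted as 1 and 0.474 in the IP libraries and as 0.318 and 0.357 in the input libraries. tRNA genes took 7.18% and 6.80% of the normalized reads in the IP, against 74% and 75% in the input. With totals made nearly equal in this way, the protein-coding gene at the median was 2.38 higher in the IP than in the input on the log2 scale, and differences between IP and input are therefore also given relative to that gene. Density is given as normalized reads per nt of a feature, and log2 densities were taken after adding a pseudocount of 0.000118, so that a feature without a read stands at −13.04. Intervals and read floors cover counting error only, because reads without molecular identifiers are not independent molecules.

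Most non-antisense XUTs had few reads. The XUT at the median had 4 and 9 reads in the IP libraries, against 2 and 1 reads in the input libraries. Together the 433 XUTs held 7621 and 15344 reads in the IP (0.228% and 0.220% of the normalized reads), against 10822 and 8527 reads in the input (0.106% and 0.0935%). No read fell on 65 and 35 of them in the IP libraries, against 123 and 147 in the input libraries. In total 62 (14.3%) had reads in the IP and none in either input, and 154 of 1205 asXUTs (12.8%) did so. In both IP libraries, 10 or more reads were counted for 126 non-antisense XUTs (29.1%) and for 390 asXUTs (32.4%).

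The IP replicates were close for the XUTs with enough reads. Among the 126, the log2 densities of both replicates had a Pearson r of 0.934 across XUTs, which are not independent replicates, and 122 (96.8%) lay within 2-fold between replicates. The log2 density of replicate 2 over replicate 1 had a median of −0.08 and ran from −3.44 to 1.22. Its lowest value belonged to XUT0793, which lies 180 nt before SPCC757.04 and had 103 and 20 IP reads, against 7 and 1 input reads.

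In density, non-antisense XUTs were close to asXUTs and far below protein-coding genes. Their median log2 IP density was −6.87 and −6.85 in replicates 1 and 2, against −6.76 and −6.79 for asXUTs and −3.53 and −3.58 for genes. The median of the mean over both replicates was 0.10 below that of asXUTs (difference −0.10, or −0.11 and −0.06 in each replicate, SD 0.0349, n = 2). That difference turned to 0.29 when only XUTs with 10 or more reads in both IP libraries were kept, and to 0.05 when only XUTs on chromosomes I to III with over 90% unique sequence were kept, an alternative chosen after seeing the data. Against genes the difference was −3.39 (−3.35 and −3.27 in each replicate, SD 0.0518, n = 2). Only 20 of the 433 XUTs (4.62%) lay above the median gene in both IP libraries.

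In the input both kinds of XUT were also close. The median log2 input density of non-antisense XUTs was −9.79 and −9.998, against −9.53 and −9.76 for asXUTs, with a difference of medians of −0.26 (−0.25 and −0.24 in each replicate, SD 0.00932, n = 2). With 10 or more reads required in both IP libraries this difference also turned, to 0.35. These low medians rest on 1 or 2 reads, so an order between both kinds of XUT in the input was not detectable at this depth.

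The 433 XUTs were divided by whether other annotated features lay on the same strand. The table holds no read-level assignment, and a read on a shared stretch is counted on both features. In all, 192 XUTs (44.3%) shared no nt with another non-XUT feature on their strand and are called clear, whereas 624 of 1205 asXUTs (51.8%) were clear. Clear non-antisense XUTs were shorter, with a median of 382.5 nt, against 611 nt for the 241 overlapping ones. Their median log2 IP density was −7.57 and −7.61, against −6.46 and −6.31 for the overlapping ones. The difference between the medians of the replicate means was −1.38 (−1.11 and −1.30 in each replicate, SD 0.133, n = 2). Only 24 clear XUTs (12.5%) had 10 or more reads in both IP libraries, and among XUTs with that many reads the difference shrank to −0.17. In the input the clear XUT at the median had 1 and 0 reads.

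**Figure D1:**
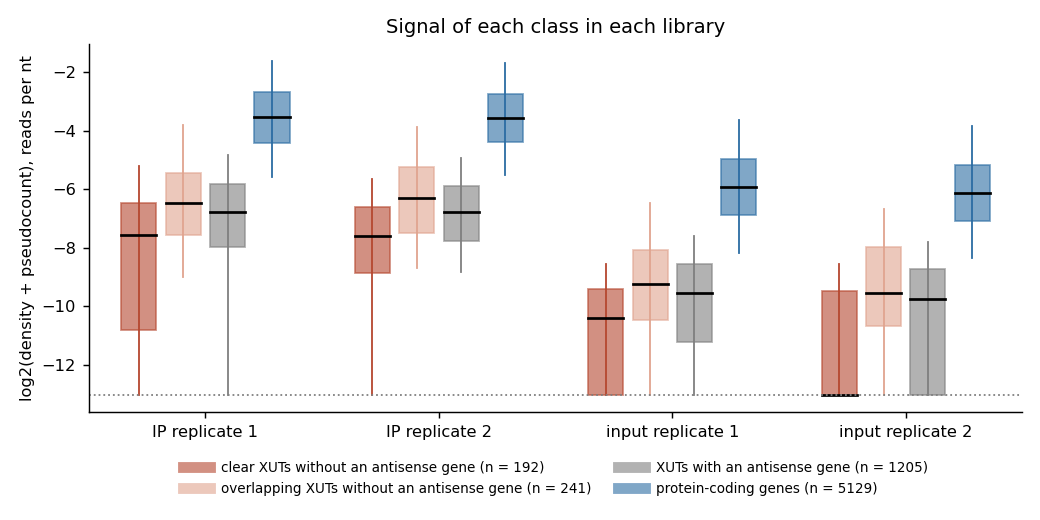
Log2 of density plus pseudocount (y axis, normalized reads per nt) in each of the 4 libraries (x axis) for clear and overlapping XUTs without an antisense gene, XUTs with an antisense gene, and protein-coding genes. Boxes span the quartiles with the median as a black line, whiskers run between the 10th and 90th percentiles, and the dotted line marks a feature without a read. In the IP libraries clear XUTs have medians of −7.57 and −7.61, below overlapping XUTs at −6.46 and −6.31, and genes lie far above both.

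By kind of same-strand feature, 159 non-antisense XUTs overlapped an annotated ncRNA gene, and 116 of them lay wholly inside it. A protein-coding gene on the same strand was overlapped by 52, and 43 of those lay wholly inside it. There were 24 that overlapped a non-coding transcription unit newly defined in this annotation, 16 that overlapped a pseudogene and 9 that overlapped a tRNA gene. The kinds are not exclusive, since only 241 XUTs overlapped any of them, and the same XUT can count under several. None overlapped a snoRNA, snRNA or rRNA gene, or another XUT, on the same strand. Median log2 IP densities ran in the order tRNA gene (−2.51 and −2.63), gene (−5.83 and −6.13), newly defined unit (−6.12 and −6.07), ncRNA gene (−6.62 and −6.45) and pseudogene (−8.18 and −7.63). The gene and newly defined unit kinds changed places between replicates, so their order was not resolved.

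The RefSeq annotation, which is more recent, lists 7133 lncRNA genes on chromosomes I to III where the deposited table has 1522 ncRNA genes. Of the 182 clear non-antisense XUTs on these chromosomes, 125 (68.7%) shared at least 1 nt with a same-strand RefSeq lncRNA gene, and the XUT at the median of these was covered to 100%. These 125 had median log2 IP densities of −7.71 and −7.78, against −7.16 and −7.35 for the clear XUTs that no RefSeq lncRNA gene touched.

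The pair with the highest IP density among XUTs that overlapped a same-strand gene lay along genes of transcriptional repressors. XUT1071 lies wholly inside scr1, which encodes a zinc finger repressor of glucose-repressed genes, and had 277 and 599 reads in the IP libraries, against 114 and 78 in the input libraries. The whole scr1 gene had 734 and 1426 IP reads, so XUT and gene reads cannot be told apart there. XUT1227 shares 1112 nt with ssn6, which encodes a corepressor that acts with Tup11 and Tup12. It had 254 and 484 reads in the IP libraries, against 70 and 57 in the input libraries. Reads on the stretch that it shares with ssn6 are likewise counted on both. XUT1060 lies wholly inside cdk9, the kinase of the elongation factor P-TEFb, and had 36 and 57 IP reads against 4 and 8 input reads.

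On the opposite strand, where genes were excluded by the choice of XUTs, 119 (27.5%) still shared 50 nt or more with an ncRNA gene, and 99 (22.9%) with another XUT. For 75 of these 99 the XUT across from it was itself a non-antisense XUT. The highest of those opposite a non-gene feature, leaving aside XUT1148 described below, were XUT0687, XUT1456 and XUT0530. XUT0687, opposite SPNCRNA.935 over 1940 nt, had 130 and 215 IP reads against 85 and 48 input reads. XUT0530, opposite SPNCRNA.737 over its whole 1611 nt, had 97 and 209 IP reads against 34 and 20 input reads. XUT1456, opposite SPNCRNA.861, had 106 and 188 IP reads against 59 and 48 input reads. All 3 also lay on a same-strand ncRNA gene, so that non-coding transcripts are annotated on both strands of each locus. XUT1497, inside rrp1 and opposite an annotated antisense RNA of that gene, had 20 and 27 IP reads against 2 and 4 input reads.

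By position, the nearest gene of a non-antisense XUT was most often divergent, that is on the other strand and transcribed away from the XUT. This held for 146 XUTs (33.7%), with a median gap of 198 nt between both starts, and 74 of them started under 200 nt from the gene. A further 116 (26.8%) lay upstream of a gene on the same strand, with a median gap of 366.5 nt. Convergent pairs, whose ends face each other, made up 55 (12.7%; median gap 318 nt), and 41 (9.47%; median gap 469 nt) lay downstream of a gene on the same strand. The other 75 comprised the 52 that overlapped a same-strand gene, 14 that shared 1 to 49 nt with an opposite gene and 9 on sequences without a gene. Of the 605 ncRNA genes chosen by the same rule, 29.6% were divergent, 22.1% upstream, 8.43% convergent, 9.75% downstream and 25.5% overlapping a same-strand gene (52 of 433 non-antisense XUTs). Divergence was the most frequent position in both kinds of transcript.

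**Figure D2:**
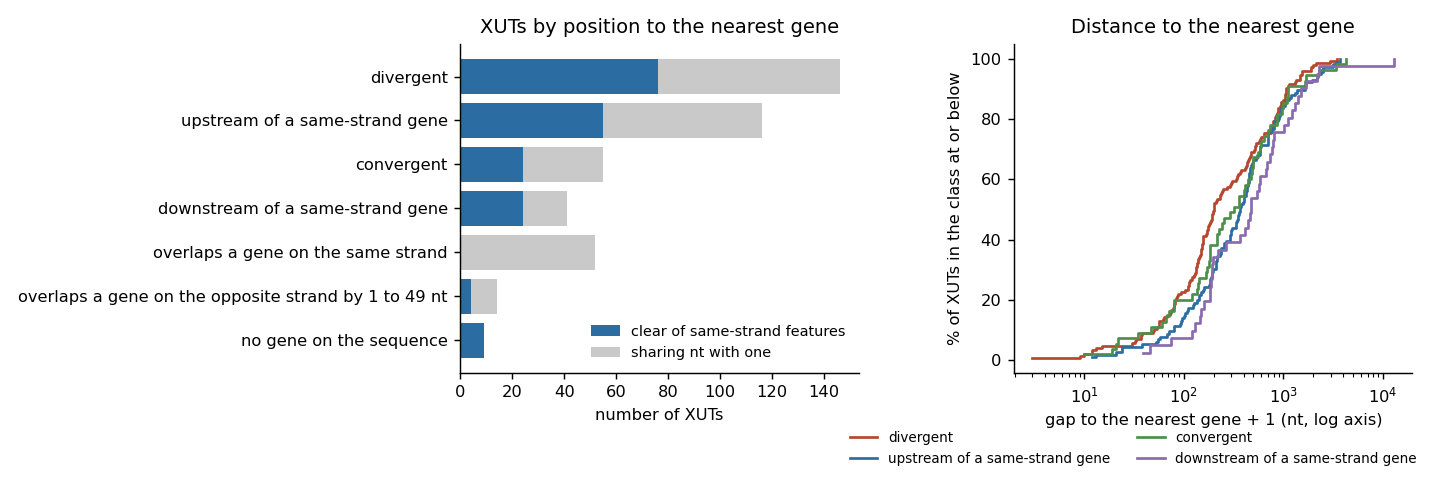
The left panel gives the number of XUTs without an antisense gene (x axis) in each position relative to the nearest gene, split into clear XUTs and those sharing nt with a same-strand feature. The right panel gives, for the 4 classes with a gap, the percentage of XUTs (y axis) at or below each gap to the nearest gene in nt plus 1 (log x axis). Divergent XUTs form the largest class with 146 and have the smallest median gap, 198 nt.

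By position, median log2 IP densities were −7.53 and −7.23 for divergent XUTs, −6.74 and −6.93 for upstream ones, −6.88 and −6.84 for convergent ones and −7.19 and −8.31 for downstream ones. Relative to the nearest gene, the divergent XUT at the median was 3.75 and 3.18 lower on the log2 scale (−3.75 and −3.18), and 10 of 146 lay above their gene in both IP libraries. For downstream XUTs this median was −2.00 and −1.98, and 6 of 41 lay above their gene. XUTs and genes of one locus share their libraries, and the rank correlation of IP density between XUT and nearest gene is a description only. Its Spearman rho was 0.277 and 0.322 for divergent pairs, 0.103 and 0.130 for upstream pairs, 0.284 and 0.379 for convergent pairs and 0.781 and 0.698 for downstream pairs.

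The downstream position was therefore examined with a rule for non-antisense XUTs that overlap no gene on their own strand. The rule takes those starting within 1000 nt after the end of a same-strand gene, whether or not that gene was the nearest. It held for 58 XUTs, of which 31 were clear, with a median gap of 387 nt. The XUT at the median lay 2.83 below the gene before it on the log2 scale (median −2.83, or −2.32 and −2.88 in each replicate, SD 0.396, n = 2), and 6 of the 58 lay above it in both IP libraries. Spearman rho across the 58 pairs was 0.633 and 0.625, and across the 31 clear XUTs 0.709 and 0.707. The 20 XUTs after the genes with the highest IP density (0.121 to 13.1 normalized reads per nt) had median log2 IP densities of −4.88 and −5.02. The 20 XUTs after the genes with the lowest IP density (0.0274 or less) had −10.56 and −8.38, where the XUT at the median had 1 and 3.5 IP reads. The 18 between them had −6.65 and −6.73. The 375 XUTs outside the rule, among them the 52 that overlap a same-strand gene, had −6.90 and −6.95, near the middle set.

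Clear XUTs, which share no nt with another same-strand feature of the annotation of this series, gave the same order. Their medians were −5.57 and −6.38 after the 11 highest genes, −6.65 and −6.73 after 12 genes of middle density and −13.04 and −9.07 after the 8 lowest. The XUT at the median of these 8 had 0 and 1 IP reads, so the low end of the order lies at or near the value of a feature without a read. Whether sequence that cannot gain uniquely mapped reads adds to this order was not tested. The gap went with the signal as well, since the 18 XUTs under 200 nt from the gene had −5.12 and −5.07 and the 40 farther ones had −6.89 and −7.14. Genes before the nearer XUTs also had the higher median IP density, 0.149 against 0.0449, so gap and gene density cannot be told apart here.

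**Figure D3:**
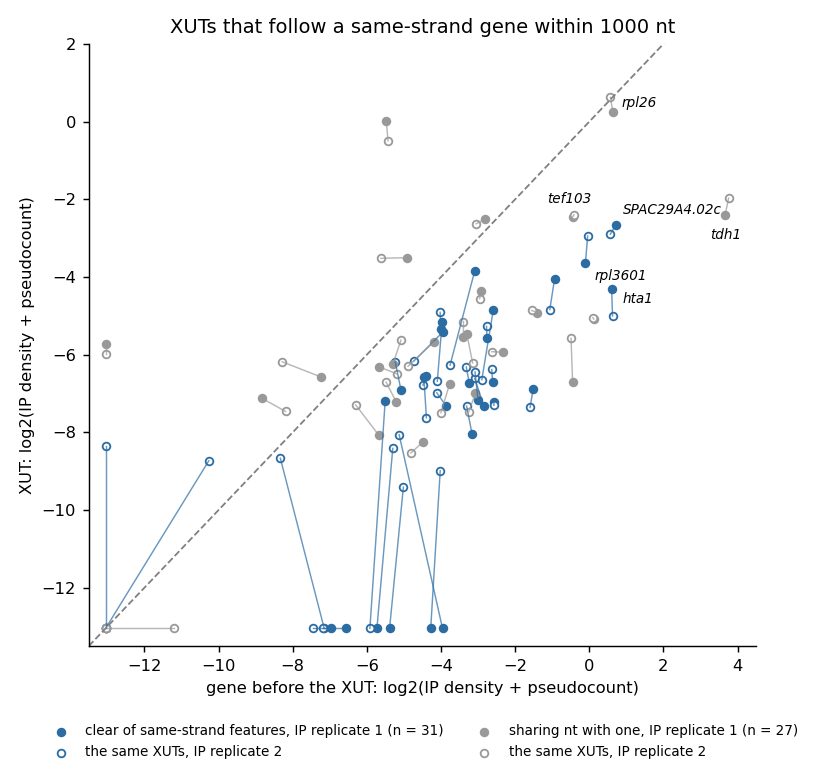
Log2 IP density plus pseudocount of the XUT (y axis) against that of the same-strand gene that ends within 1000 nt before it (x axis), for 58 XUTs without an antisense gene. Filled points are IP replicate 1, open points are IP replicate 2, a line joins the replicates of 1 XUT, and blue marks the 31 clear XUTs. Most points lie under the dashed line of equal density, with a median of −2.83, and the XUTs after dense genes such as tdh1, hta1 and rpl3601 stand to the upper right.

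The 20 XUTs after the densest genes were at a median of 5.32 and 5.31 in log2 IP over input, against 2.55 and 2.92 for the 375 XUTs outside the rule. With the larger pseudocount of the limma fit the gap was smaller, with a median of 3.20 for the same 20 and 2.39 for the 335 of the 375 in that fit. In density, clear XUTs after such genes were at 5.82 and 5.74, where the XUT at the median had 1 and 0 input reads. Protein-coding genes as a whole were at 2.298 and 2.470.

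XUT1604 is the clear XUT with the highest IP density. It covers 389 nt (chrI:5145682-5146070, + strand) between the end of SPAC29A4.02c, 166 nt before it, and the start of aif1, 52 nt after it. It had 62 and 110 reads in the IP libraries, against 1 and 0 reads in the input libraries, in densities 0.159 and 0.134 against 0.000818 and 0. Both IP libraries were far above both inputs and the Poisson intervals did not meet. Pooled over replicates, the IP to input ratio was 329 with an exact 95% interval from 58.2 to 13065. The gene before it had 2917 and 5538 IP reads and densities of 1.65 and 1.48.

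XUT0048 is a clear XUT of 679 nt (chrIII:505525-506203, − strand) that starts 146 nt after rpl3601, a gene for a protein of the large ribosomal subunit. It had 54 and 186 reads in the IP libraries, against 1 and 2 reads in the input libraries, a pooled ratio of 153 (51.7 to 747). XUT0093, a clear XUT 185 nt after the histone H2A gene hta1, had 20 and 26 reads in the IP libraries, against 0 and 1 in the input libraries, a pooled ratio of 88.0 (15.02 to 3549). In each of these XUTs no IP value overlapped an input value, and the IP density of hta1 itself was 1.52 and 1.54. In the RefSeq annotation XUT0048 shares 498 nt with the same-strand lncRNA gene SPNCRNA.6881, and XUT0093 shares 369 nt with SPNCRNA.7357. XUT1604 shares no nt with such a gene.

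The same layout recurred at XUTs inside ncRNA genes that the annotation of this series lists. XUT1148 (chrII:2809195-2809736, + strand) starts 143 nt after tdh1, the gene of the glycolytic enzyme glyceraldehyde-3-phosphate dehydrogenase, and ends 79 nt before tfb5. It had 102 and 292 reads in the IP libraries, against 6 and 3 in the input libraries. The gene tdh1 had 19208 and 43378 IP reads, the most of any gene before one of these XUTs. XUT0214, 160 nt after the translation elongation factor gene tef103, had 63 and 139 reads in the IP libraries, against 1 and 3 in the input libraries. XUT0134, 218 nt after the thioredoxin peroxidase gene tpx1, had 12 and 26 against 1 and 0, and XUT1605, 115 nt after lrs1, had 37 and 81 against 2 and 6. In all 4 XUTs both IP libraries lay above both inputs.

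XUT0265 differed from the XUTs after dense genes named above. It starts 128 nt after rpl26, a gene for another large subunit ribosomal protein, shares 322 of its 334 nt with SPNCRNA.1444, and had 396 and 1087 reads in the IP libraries, against 787 and 572 in the input libraries. Its IP densities, 1.19 and 1.54, were close to those of rpl26, 1.56 and 1.48, and its input densities, 0.750 and 0.611, were close to those of rpl26 as well, 0.804 and 0.734. Of the 20 XUTs after the densest genes, only this one and XUT0038, which shares a tRNA gene, had over 100 reads in each input library.

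XUT1539 stood high without a gene just before it, and XUT0002 stood high on a sequence for which the annotation lists no gene. XUT1539, a clear XUT of 901 nt (chrI:4239947-4240847, + strand), has dal2 as its nearest gene, convergent at 964 nt, and had 128 and 240 reads in the IP libraries, against 33 and 36 in the input libraries. XUT0002, on the unplaced sequence AB325691 (1277-3520, − strand), had 151 and 292 reads in the IP libraries, against 63 and 55 in the input libraries. XUT0447, 3345 nt from the telomere-linked helicase gene tlh2, had 77 and 154 reads in the IP libraries, against 21 and 12 in the input libraries. Unlike XUT1604, XUT0048 and XUT0093, all 3 had more than 10 reads in each input library. The other clear XUTs of highest IP density, XUT0378, XUT0181, XUT0341 and XUT0017, had 14 to 31 and 9 to 40 reads in the IP libraries, against 3 to 5 and 0 to 4 in the input libraries.

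**Figure D4:**
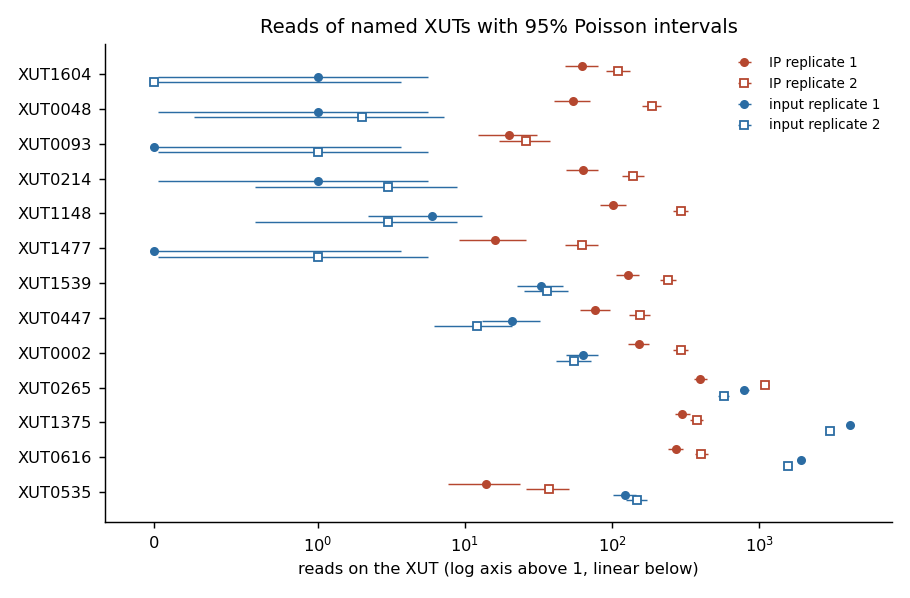
Reads (x axis, logarithmic above 1 and linear below) of 13 XUTs without an antisense gene, each on its own row, in the 2 IP (red) and 2 input (blue) libraries, with lines for the 95% Poisson intervals. From XUT1604 to XUT1477 the inputs hold 0 to 6 reads and every IP value is above them. At XUT1375, XUT0616 and XUT0535, which share a tRNA gene, every input value is above the IP values.

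Across all features, IP and input were compared with limma (moderated test with trend, Benjamini-Hochberg adjustment over 8651 features). The test called 91.6% of all features higher in the IP and 1.43% lower at an adjusted p of 0.05. Of the 433 non-antisense XUTs, 383 had a value above 0 in at least 2 libraries and entered the fit, and 50 did not, among them 21 (4.85% of the 433) with no read in any library. In the fit 305 of the 383 (79.6%) were higher in the IP and 3 were lower, against 932 of 1133 asXUTs (82.3%) higher and 5 lower, so both kinds of XUT lay under the 91.6% of all features. The median log2 IP over input was 2.41 for non-antisense XUTs, 2.44 for asXUTs and 2.38 for genes, with a median SE of 0.587 for the non-antisense XUTs. Within replicates, 348 XUTs (80.4%) had more density in the IP than in the input of both replicates, and 5 had less in both.

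Relative to the median gene fewer XUTs were called higher. With each library centred on its median gene, limma called 9.58% of all features higher and 16.4% lower, and 21 non-antisense XUTs (5.48%) higher and 17 (4.44%) lower. On the recovered read counts, edgeR's quasi-likelihood test with Benjamini-Hochberg adjustment called 15.5% of all features higher and 19.2% lower, and 35 of 185 tested non-antisense XUTs (18.9%) higher and 13 (7.03%) lower. DESeq2 called 5.82% higher and 12.0% lower over all features, and 14 of 184 non-antisense XUTs higher and 12 lower. Centred limma and edgeR shared 21 XUTs called higher and 13 called lower. The share called lower was under the share of all features in each of these 3 fits. The share called higher was under that of all features in the centred limma and above it in edgeR and DESeq2. However, edgeR and DESeq2 left out features with few reads, and 276 of the 433 XUTs had 3 reads or fewer in both inputs. XUTs could thus enter these fits on their IP reads alone, so the higher share there is not a result about the XUTs. Of the asXUTs tested, the centred limma called 6.27% higher and 2.82% lower, and edgeR called 20.4% higher and 2.29% lower. Non-antisense XUTs were thus called higher less often, and lower more often, than asXUTs in both. The larger share called lower rests on the 9 XUTs that share a tRNA gene, all called lower in both fits. Without them 8 of 374 were lower in the centred limma and 4 of 176 in edgeR. Of the asXUTs, with none left out, 32 of 1133 and 13 of 568 were lower.

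Several XUTs after dense genes were among those higher relative to the median gene. XUT1604 rose by 6.99 ± 0.47 on the log2 scale (SE, limma adjusted p = 3.4e-06) and by 4.51 after centring (limma adjusted p = 9.1e-05), and in edgeR by 5.77. XUT0048 was at 6.42 ± 0.43 (limma adjusted p = 3.3e-06) and at 3.94 after centring (limma adjusted p = 1.8e-04). XUT0093, XUT0214 and XUT1148 were at 5.11 ± 0.57, 6.11 ± 0.45 and 6.08 ± 0.34, each higher also after centring (limma adjusted p = 0.012, 4.0e-04 and 2.5e-05). Fitted changes of XUTs with 0 to 3 input reads depend on the pseudocount and are no bound on the ratio. Of the 20 after the densest genes, all in the fit, 7 (35.0%) were higher after centring and 2 were lower. Among the XUTs outside the rule for a gene before the XUT, 14 of 335 (4.18%) were higher. The list of genes by density used the same IP libraries as the calls, and no test of this difference was run.

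XUT1477, also higher after centring, is not among the XUTs after a same-strand gene. It lies wholly inside SPNCRNA.893, 164 nt from the convergent ribosomal protein gene rpl2301. It had 16 and 62 reads in the IP libraries, against 0 and 1 in the input libraries (5.57 ± 0.57, limma adjusted p = 2.8e-05, and 3.09 after centring). The ncRNA gene around it had 1123 and 2512 reads in the IP libraries, against 2372 and 1727 in the input libraries. Of the input reads on that ncRNA gene, therefore, at most 1 per library lay on the stretch of the XUT.

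XUT0462, which lies 197 nt after SPAC24B11.07c, had the most IP reads of the 62 XUTs without an input read, 10 and 6. With 3 reads in each input as the floor its IP was at least 5.10-fold higher. Its centred change did not pass the test (1.69, limma adjusted p = 0.12).

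Signal in the input above that in the IP was seen at XUTs that share a tRNA gene. The 5 XUTs with less density in the IP than in the input of both replicates, XUT1375, XUT0535, XUT0616, XUT1222 and XUT1349, each overlapped a tRNA gene on the same strand. XUT1375 had 300 and 374 reads in the IP libraries, against 4117 and 3005 in the input libraries, and SPATRNACYS.01, which shares 46 of its 224 nt, had 300 and 374 against 4114 and 3005. XUT0616 had 270 and 404 reads in the IP libraries, against 1914 and 1574 in the input libraries, and SPATRNATHR.03 had 262 and 386 against 1908 and 1567. XUT0535 had 14 and 37 against 122 and 147, where SPATRNAGLY.01 shares 24 nt. At XUT1375 and XUT0616 the reads of the XUT and of its tRNA gene were thus nearly equal in number in all 4 libraries.

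These 3 XUTs were the ones lower in the IP by limma, by −2.36 ± 0.24 (adjusted p = 2.6e-05), −1.36 ± 0.17 (adjusted p = 1.1e-04) and −1.51 ± 0.25 (adjusted p = 5.3e-04) for XUT1375, XUT0616 and XUT0535. XUT1222 was at −0.42 ± 0.18 and XUT1349 (112 and 261 IP reads against 443 and 359 input reads) at −0.19, neither past the test (limma adjusted p = 0.053 and 0.22). Without IP replicate 2 limma called 8 non-antisense XUTs lower. All 9 XUTs that share a tRNA gene were lower after centring and in edgeR. Without these 9, limma called 0 of 374 XUTs lower at an adjusted p of 0.05 and 0 at an unadjusted p of 0.05, the centred limma called 8 of 374, edgeR 4 of 176 and DESeq2 3 of 175, a comparison added after seeing the data. Among clear XUTs likewise limma called 0 of 155 lower, also unadjusted, whereas the centred limma called 5 of 155, edgeR 2 of 44 and DESeq2 2 of 41.

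Not all reads of these XUTs lay on the tRNA gene. XUT1229 had 133 and 191 reads in the IP libraries, against 334 and 312 in the input libraries, whereas SPBTRNALEU.10, which shares 73 nt with it, had 18 and 40 IP reads against 156 and 174 input reads. XUT0038 had 56 and 109 IP reads against 152 and 151 input reads, with 22 and 29 against 121 and 103 on SPCTRNAPHE.04. At these XUTs the reads of the tRNA gene were fewer, relative to those of the XUT, in the IP than in the input. The tRNA genes reach beyond the XUTs, so the reads of a XUT off its tRNA gene cannot be counted exactly. The part of tRNA reads in the signal of the XUTs was not tested beyond these counts.

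**Figure D5:**
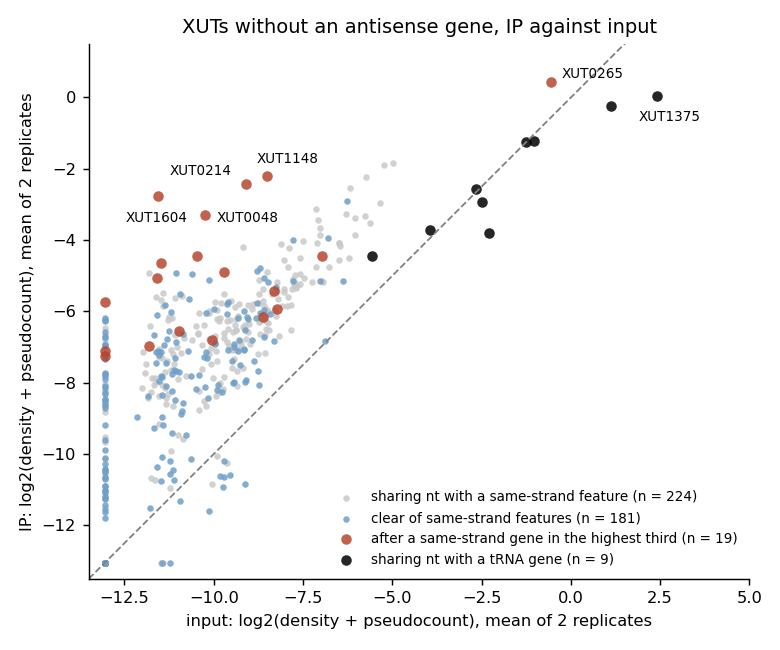
Log2 of IP density plus pseudocount (y axis) against log2 of input density plus pseudocount (x axis), each a mean of 2 replicates, for the 433 XUTs without an antisense gene. Red marks the XUTs after a same-strand gene of high IP density, black the 9 that share a tRNA gene, blue the other clear XUTs and grey the other overlapping ones, and the dashed line is equal density. Black points lie close to the line or below it, and red points such as XUT1604, XUT0214 and XUT0048 lie far above it.

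The longest non-antisense XUTs did not stand out in density. XUT0031, of 2796 nt, had 37 and 74 reads in the IP libraries, against 25 and 14 in the input libraries. XUT0630, of 2680 nt, which reaches 814 nt into agl1 on the same strand, had 67 and 121 against 23 and 28. XUT0022, of 2604 nt, lies nearly whole on SPNCRNA.1116 and ends 37 nt before SPCC320.03, and had 96 and 206 against 31 and 31. XUT0857, of 2526 nt, had 43 and 55 against 8 and 6, and XUT0760, of 2332 nt, had 29 and 65 against 15 and 21. In each of these 5 the IP density was higher than the input density in both replicates.

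Near the chromosome ends non-antisense XUTs were more frequent and weaker. Of the 423 on chromosomes I to III, 71 (16.8%) lay within 100000 nt of an end, against 47 of 1205 asXUTs (3.90%). Their median log2 IP density was −8.70 and −8.85, against −6.64 and −6.63 for the other 362 non-antisense XUTs. These 362 include the XUTs on AB325691, MTR and MT, which were not placed relative to an end. In all, 14 of the 71 (19.7%) had no read in any library, against 7 of the 362 (1.93%). Only uniquely mapped reads were kept, and sequence that repeats in the genome cannot gain such reads. Over 50% of the stretches of 40 nt were not unique in 19 of 423 non-antisense XUTs (4.49%), against 3 of 1205 asXUTs (0.249%), and 15 of the 20 XUTs of these chromosomes without any read were among the 19. The other 4 of the 19 had reads, and 7 of the 20 without a read had no unique stretch of 40 nt. Of the XUTs on other sequences, XUT0001 of the mitochondrial sequence had 44 and 69 reads in the IP libraries, against 46 and 50 in the input libraries. After scaling by the library factors, its signal was higher in the IP than in the input of both replicates. Before centring the same held for most features, with 91.6% of all features called higher by limma. Its place relative to the median gene is not given here. XUT0006 of MTR had no reads.

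In sequence, non-antisense XUTs had a median GC content of 33.7%, against 36.8% for asXUTs and 36.7% for genes. The motif TATAAA, the consensus of the box that binds TBP at some promoters, lay on the sense strand in the 100 nt before the start of 11.8% of non-antisense XUTs, 8.46% of asXUTs and 12.6% of genes, and on the other strand in 11.6%, 8.22% and 11.04%. The motif AATAAA, the polyadenylation signal, lay on the sense strand in the 100 nt around the annotated end in 26.5% of non-antisense XUTs, 24.1% of asXUTs and 24.7% of genes, and on the other strand in 23.6%, 13.6% and 22.2%. Of the clear non-antisense XUTs, 19.2% held AATAAA on the sense strand and 17.0% on the other. A match is a description of these letters in these windows and not a site.

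From a list of 7 genes kept for their known or proposed control by upstream or antisense non-coding transcription, few had a non-antisense XUT nearby (pho1, pho84, tgp1, fbp1, adh1, byr2 and mei4). XUT1266, 777 nt downstream of the acid phosphatase gene pho1 on the same strand, had 3 and 8 reads in the IP libraries, against 2 and 0 in the input libraries. XUT1060, described above, shares 38 nt with mei4, which encodes a meiotic forkhead factor. None of the 433 lay within 1000 nt of the other 5 genes.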

How the data were processed

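The authors sequenced nascent RNA libraries (IP) and total RNA libraries (input) of 2 biological replicates, removed the 5′ adapter and kept reads aligned uniquely with up to 2 mismatches by Bowtie to ASM294v2. The deposited table gives, per feature and library, whole-number read counts for IP replicate 1 and, for the other 3 libraries, a normalized signal, which is read counts multiplied by 1 factor per library. It also gives a density per nt. The basis of the factors and the counting tool are not given in the sources used here. Columns summed over replicates by the authors were not used, and wild-type libraries are not analysed here.

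Dividing each library by its smallest positive value gave whole reads for 100% of values (tolerance 0.001). log2(normalized reads + 0.318) of the features other than coding sequences with a value above 0 in at least 2 libraries was fitted with limma 3.58.1 (trend, no replicate block) in R 4.3.3, and p-values were adjusted after Benjamini and Hochberg over 8651 features. edgeR 4.0.16 on recovered reads called 1098 of 7097 features higher and 1364 lower. DESeq2 1.42.0 left adjusted p-values out where it gave none. Ratios of pooled reads had exact conditional binomial intervals (95%, scipy 1.17.1). A 3-read floor stood for an input without a read. The scripts were tested on simulated data. Differences between classes of regions are medians given per replicate with no test, since regions are not replicates.

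Input and IP of 1 replicate number come from the same biological sample per the labels, so the numbers pair the libraries. The correlation of their deviations was 0.152 over 4644 genes with 10 or more reads. Named XUTs were the 10 clear ones with the highest IP density, the 5 highest overlapping ones, the 5 with the highest input density, the 5 highest and 5 lowest in IP over input among those with 10 or more reads in both IP libraries, the 5 longest, the 5 highest opposite a non-gene feature and any within 1000 nt of the listed loci. XUT0462, XUT0793, XUT1071, XUT1227, XUT0134, XUT1605, XUT0001, XUT0006 and the other XUTs that share a tRNA gene were named after their values were seen. The XUTs and lists were chosen with earlier results of these data known. RefSeq sequences and lncRNA genes were read by coordinate, where 5113 of 5119 coding sequences came out whole. Sequence was called unique by stretches of 40 nt found once in the genome.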

Additional observations from a re-analysis of the deposited data

How the results depend on the processing

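Of 97 alternatives to 9 results, 49 moved them by less than the replicate spread (for counts, within 1.5 times), 43 moved them further and 5 turned the sign, and the causes were not tested. The difference in median log2 IP over input between non-antisense XUTs and genes, 0.43, was 0.77 with a pseudocount 10 times smaller, −0.32 with one 10 times larger and −0.084 with reads per feature, so its sign depends on the pseudocount. The IP difference from asXUTs, −0.10, was −0.18 with means, −0.23 with reads per feature, −0.14 with under 1 nt opposite a gene, −0.26 among clear XUTs, 0.29 with 10 or more reads and, chosen after seeing the data, 0.053 with over 90% unique sequence. The IP difference from genes, −3.39, was −3.22 with the larger pseudocount, −3.57 with means, −1.70 with 10 or more reads, −5.27 with reads per feature and −4.22 for clear XUTs. The input difference from asXUTs, −0.26, was −0.33 and −0.12 with the smaller and the larger pseudocount, −0.050 with means, −0.014 with reads per feature, −0.33 and −0.21 with under 1 and under 100 nt opposite a gene, −0.17 among clear XUTs, −0.14 with over 90% unique sequence and 0.35 with 10 or more reads. The IP difference between clear and overlapping XUTs, −1.38, was −1.20 with the larger pseudocount, −1.72 with means, −0.17 with 10 or more reads and −1.94 with reads per feature. The XUT over the gene before it, −2.83, was −2.41 with means, −4.22 with reads per feature and −2.33 with a gene within 200 nt.

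The smaller counts of XUTs called go with fewer tested XUTs for the settings that require reads or leave XUTs out. Leaving out 1 replicate gave 0.25 to 0.48 for IP over input, −0.11 to −0.06 against asXUTs, −3.35 to −3.27 against genes, −0.25 to −0.24 in the input, −1.30 to −1.11 for clear against overlapping XUTs and −2.88 to −2.32 for XUTs after a gene. The 305 XUTs called higher became 21 with centring on the median gene, 118 with 10 or more reads, 35 in edgeR, 14 in DESeq2 and 112 for clear XUTs only, and 215 to 277 when 1 library was left out. The 3 called lower became 17 with centring, 13 in edgeR, 12 in DESeq2, 0 for clear XUTs, 0 without XUTs that share a tRNA gene, and 3 to 8 when 1 library was left out, the 8 without IP replicate 2. With the replicate block limma called 307 higher and 3 lower, and with the replicate block and centring 29 higher and 23 lower. The number of XUTs chosen was 419 with under 1 nt and 449 with under 100 nt opposite a gene, and 299 when every non-XUT feature counted. Depth limits the input values, since 276 of 433 (63.7%) had 3 reads or fewer in both inputs.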
